A study of Mus musculus with 6 samples.

Results

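Beta cell transcription factors were followed as 10 genes: Pdx1, Mafa, Nkx6-1, Nkx2-2, Neurod1, Pax6, Isl1, Rfx6, Insm1 and Foxa2. Every probe set whose only annotated gene symbol was one of these was taken, without regard to its values. The list of genes itself was chosen with earlier results of these data known. The array carried 16 such probe sets for 8 of the 10 genes, out of 18193 genes named by 1 symbol in the table. No probe set carried the name of Mafa or Rfx6, so the signal of these 2 genes was not analysed here. No probe set was shared between a member and another gene.

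The samples were pancreatic islets of male OF1 mice, an outbred strain, aged 10 weeks, with 3 samples from BPA-treated animals and 3 from control animals. Bisphenol A (BPA) is a compound used to make plastics, and it binds oestrogen receptors. The series design states that the BPA group received 100 µg/kg/day under the skin as injections of 50 µg/kg for 4 days in corn oil stripped of tocopherol. Control animals received 100 µL of the same oil, and islets were taken 16 hours after the last injection. Other labels differ from this: the treatment protocol speaks of 2 days, and the BPA samples' source names give 1 nM over 48 hours. Neither group carried a transgene or mutation in the labels. The labels call the samples biological replicates, but they do not say how many animals entered each one. The p-values therefore measure the spread between these samples, part of which may be technical.

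Pancreatic beta cells keep their identity through a small set of DNA-binding proteins that act on one another's genes and on those for insulin, glucose uptake and insulin secretion. Pdx1, Mafa and Neurod1 bind the insulin promoter together. Several of the others also serve the alpha, delta and PP cells of the islet, and so their signal in whole islets comes from more than one cell type. In such bulk samples, fewer cells of a type and less RNA per cell cannot be told apart.

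No member passed the test, and the measured members differed between BPA and control islets by at most 0.28 on the log2 scale. Each array gave 1 log2 signal per probe set, so a difference of 1 is a doubling. Probe sets entered the test if their mean over the 6 arrays was above 6.60, the median of all, which kept 14 of the 16 member probe sets. In limma's moderated test, 0 of these 14 had an adjusted p under 0.05, where 0.0% of all 22518 tested probe sets did (0 of 22518). At an unadjusted p under 0.05 there was 1 of 14, a lower one, against 6.47% of all tested probe sets (2.64% lower). The smallest adjusted p among the members was 0.736. Differences, given throughout as BPA minus control, ran from -0.26 to 0.28 over the 14 probe sets. Of these, 11 lay below 0 and 3 above 0, while 47.4% of all tested probe sets lay below 0. The BPA and control arrays did not overlap for 3 of the 14, each lower after BPA, where 4.35% of all tested probe sets were lower in this way. No member probe set was higher without overlap, where 7.83% of all were, and 12.2% of all were separated in either direction. Those 3 belonged to Pdx1, Neurod1 and Isl1, and in each of these genes another probe set showed overlapping groups.

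**Figure D1:**
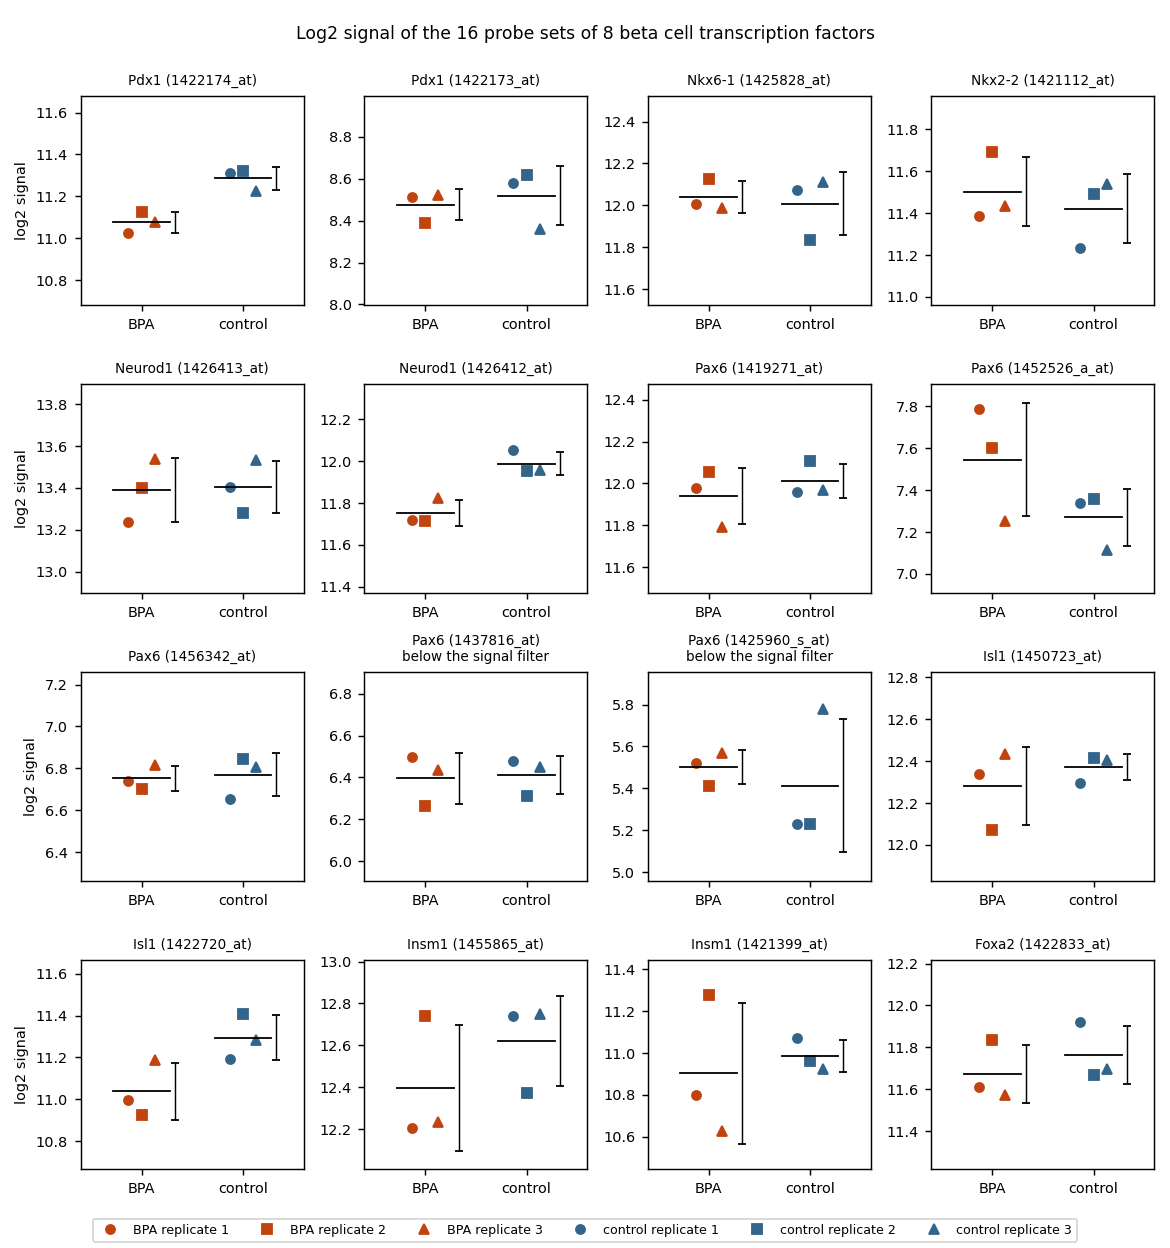
Log2 signal (vertical axes, each spanning 1 unit) of each of the 16 member probe sets, with BPA arrays on the left and control arrays on the right of each panel. Symbols mark the replicate number, horizontal lines the mean of 3 arrays and bars the SD. Only Pdx1 (1422174_at), Neurod1 (1426412_at) and Isl1 (1422720_at) show groups that do not overlap, and 2 probe sets of Pax6 lie below the signal filter.

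Pdx1 encodes a homeodomain protein that is needed for the pancreas to form and that activates the insulin gene in adult beta cells. The gene lies on chromosome 5 (chr5:147270097-147275848, GRCm38.p6). Its probe set 1422174_at had log2 signals of 11.03, 11.13 and 11.08 in BPA islets, against 11.31, 11.32 and 11.22 in control islets. All 3 BPA arrays were below all 3 control arrays, with a gap of 0.099 between the nearest arrays. The mean was 11.08 ± 0.05 after BPA, against 11.29 ± 0.05 in controls (SD over 3 arrays each), so the signal after BPA was 0.864 times that of controls. The difference of -0.21 ± 0.09 (SE) had a 95% interval of -0.42 to 0.003 and did not pass limma's test (adjusted p = 0.781). The other probe set of Pdx1, 1422173_at, read 8.52, 8.39 and 8.52 after BPA, against 8.58, 8.62 and 8.36 in controls. There the groups overlapped, and the difference was -0.043 ± 0.122 (SE). Over the 6 arrays the 2 probe sets of Pdx1 correlated at r = 0.352, a description of 6 points that share their arrays.

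Neurod1, a basic helix-loop-helix protein that pairs with E proteins to bind E-boxes in the insulin promoter, lies on chromosome 2 (chr2:79452637-79456636). Probe set 1426412_at read 11.72, 11.71 and 11.82 in BPA islets and 12.05, 11.95 and 11.96 in control islets. Again the BPA arrays all lay below the controls, with a gap of 0.13. The difference was -0.24 ± 0.09 (SE), with a 95% interval of -0.44 to -0.031, which is the single member interval that did not include 0. Its unadjusted p was 0.0295 and its adjusted p 0.736 by limma. The signal after BPA was 0.849 times that of controls. Probe set 1426413_at of the same gene did not show this. It had 13.24, 13.40 and 13.54 after BPA, against 13.40, 13.28 and 13.53 in controls, a difference of -0.014 ± 0.108 (SE) with groups that overlapped along most of their range. The 2 probe sets correlated at r = 0.245 over the 6 arrays.

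Isl1, a LIM-homeodomain protein of all endocrine islet cells, lies on chromosome 13 (chr13:116298270-116309688). Probe set 1422720_at read 11.00, 10.93 and 11.19 after BPA, against 11.19, 11.41 and 11.28 in controls. The groups were separated by 0.0021 only, between BPA replicate 3 and control replicate 1. The difference of -0.26 ± 0.11 (SE) had a 95% interval of -0.53 to 0.015 and an adjusted p of 0.791. Probe set 1450723_at read 12.34, 12.07 and 12.43 after BPA and 12.30, 12.41 and 12.40 in controls. In it BPA replicate 2 was the lowest array and BPA replicate 3 the highest, and the difference was -0.090 ± 0.114 (SE). The 2 probe sets of Isl1 moved together more closely than those of Pdx1 or Neurod1 as far as 6 arrays describe it (r = 0.755).

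The region before the annotated start of these 3 genes is shown because they are the members with a separated probe set and because BPA binds oestrogen receptors, which bind DNA. Each line gives the 250 bases before the start on the gene's own strand, from the RefSeq promoter table (GRCm38.p6), with E-boxes (CANNTG, the same on both strands) in capitals.
Pdx1: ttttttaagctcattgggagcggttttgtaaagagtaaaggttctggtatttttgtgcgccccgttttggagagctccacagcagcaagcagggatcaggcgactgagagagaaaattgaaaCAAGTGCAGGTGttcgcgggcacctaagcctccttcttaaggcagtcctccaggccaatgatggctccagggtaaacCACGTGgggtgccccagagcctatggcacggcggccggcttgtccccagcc
Neurod1: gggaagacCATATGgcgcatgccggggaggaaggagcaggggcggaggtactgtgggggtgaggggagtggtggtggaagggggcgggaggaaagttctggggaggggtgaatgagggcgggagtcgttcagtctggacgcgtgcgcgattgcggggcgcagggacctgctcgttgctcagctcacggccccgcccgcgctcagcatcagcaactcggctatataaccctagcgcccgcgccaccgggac
Isl1: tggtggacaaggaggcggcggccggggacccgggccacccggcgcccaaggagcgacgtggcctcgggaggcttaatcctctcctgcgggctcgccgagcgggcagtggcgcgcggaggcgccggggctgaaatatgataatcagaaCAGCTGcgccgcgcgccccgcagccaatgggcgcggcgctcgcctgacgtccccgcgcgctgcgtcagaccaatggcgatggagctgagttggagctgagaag
The windows are chr5:147269847-147270096 on the plus strand for Pdx1, chr2:79456637-79456886 on the minus strand for Neurod1 and chr13:116309689-116309938 on the minus strand for Isl1. Pdx1 held 3 E-boxes, 2 of them next to each other, and Neurod1 and Isl1 held 1 each. The RefSeq table had 11 such windows for 8 of the 10 members, including 3 for Foxa2, 2 for Pax6 and 1 for Rfx6, whose signal was not measured, and none for Mafa and Insm1. An E-box was found in 6 of the 11 windows and in 66.2% of all 32851 windows of this length. The homeodomain core TAAT, searched on both strands, was in 7 of 11 windows and in 54.9% of all. The oestrogen receptor half-site GGTCA, on either strand, was in 0 of the 11 windows and in 35.2% of all. A match describes letters and not a bound site, and the absence of one says only that these letters are not in these windows. Matches of different motifs can share bases at their ends, as the CA of GGTCA can begin an E-box.

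**Figure D2:**
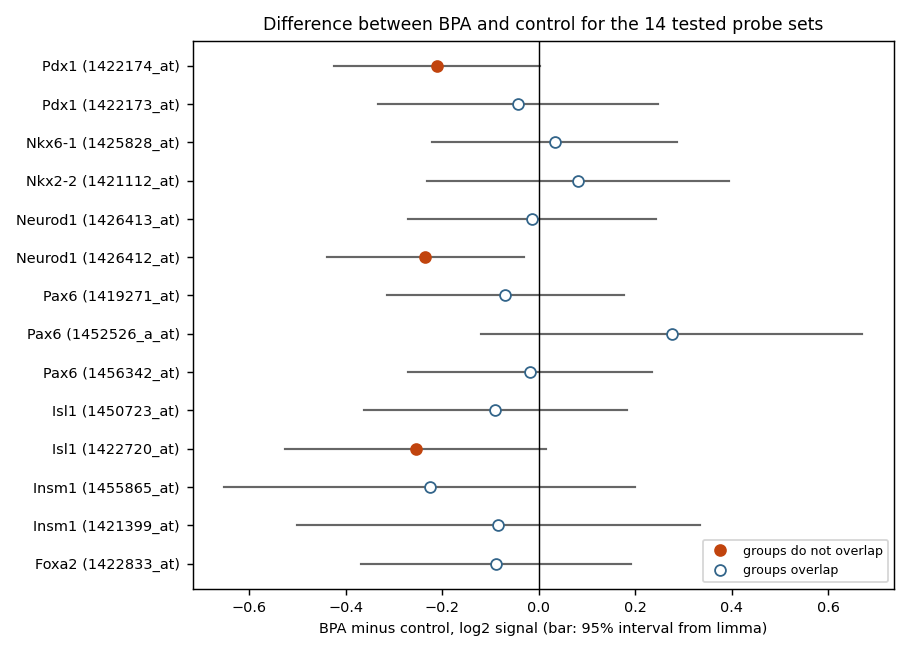
Difference in log2 signal, BPA minus control (horizontal axis), for the 14 tested probe sets (rows), with 95% intervals from limma as bars. Filled points mark the 3 probe sets whose groups do not overlap. The interval of Neurod1 (1426412_at) ends at -0.031, and those of the other 13 include 0.

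Nkx6-1 and Nkx2-2 are homeodomain proteins that hold beta cells apart from other endocrine fates. Nkx6-1 lies on chromosome 5 (chr5:101659184-101664711) and had 12.01, 12.13 and 11.99 on its only probe set after BPA, against 12.07, 11.83 and 12.11 in controls. The lowest array was control replicate 2 and the groups overlapped. The difference was 0.032 ± 0.106 (SE), with a 95% interval of -0.22 to 0.29 on the log2 scale. Nkx2-2 lies on chromosome 2 (chr2:147176485-147195434), and its only probe set read 11.39, 11.69 and 11.43 after BPA, against 11.23, 11.49 and 11.54 in controls. BPA replicate 2 was the highest array and control replicate 1 the lowest. The difference of 0.082 ± 0.131 (SE) had an interval of -0.23 to 0.39.

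Pax6, a paired-domain and homeodomain protein that all endocrine cells of the islet use and that activates the glucagon and insulin genes, lies on chromosome 2 (chr2:105668896-105698410). It had 5 probe sets, of which 3 were tested. Probe set 1419271_at read 11.98, 12.05 and 11.79 after BPA, against 11.96, 12.11 and 11.97 in controls, a difference of -0.069 ± 0.103 (SE) with overlapping groups. Probe set 1452526_a_at differed the other way, with 7.79, 7.60 and 7.25 after BPA, against 7.34, 7.36 and 7.11 in controls. Within each group replicate 3 was the lowest array of this probe set, and BPA replicate 1 was the highest of all. Its difference of 0.28 ± 0.17 (SE) was the largest upward one of the 14, with an interval of -0.12 to 0.67 and an adjusted p of 0.832. Without BPA replicate 1 it was 0.16, and without BPA replicate 3 it was 0.42. The third tested probe set, 1456342_at, differed by -0.018 ± 0.106 (SE). The 2 probe sets below the signal filter, 1437816_at and 1425960_s_at, were not part of the test. The first read 6.50, 6.26 and 6.43 after BPA and 6.48, 6.31 and 6.45 in controls. The second read 5.52, 5.41 and 5.57 after BPA and 5.23, 5.23 and 5.78 in controls, with control replicate 3 above the other 5 arrays. The 3 tested probe sets of Pax6 correlated in pairs at r between -0.425 and 0.314 over the 6 arrays.

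Insm1, a zinc finger protein of endocrine and neuroendocrine cells, lies on chromosome 2 (chr2:146221997-146225020) and varied most between arrays among the members. Probe set 1455865_at read 12.21, 12.74 and 12.24 after BPA, against 12.74, 12.37 and 12.75 in controls. BPA replicate 2 lay with control replicates 1 and 3, and control replicate 2 lay nearer to the other BPA arrays, so the groups overlapped. The difference was -0.23 ± 0.18 (SE), with an interval of -0.65 to 0.20. Its other probe set, 1421399_at, read 10.80, 11.28 and 10.63 after BPA, against 11.07, 10.96 and 10.93 in controls. BPA replicate 2 was again the highest BPA array, and the difference was -0.084 ± 0.175 (SE). Without BPA replicate 2 the differences of Insm1 were -0.40 for 1455865_at and -0.27 for 1421399_at, and without BPA replicate 3 they were -0.15 and 0.053. The 2 probe sets of Insm1 correlated at r = 0.78 over the 6 arrays.

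Foxa2, a forkhead protein that opens chromatin in the developing gut tube and stays on in adult islets, lies on chromosome 2 (chr2:148042877-148046969). Its probe set read 11.61, 11.83 and 11.57 after BPA, against 11.92, 11.67 and 11.70 in controls. The highest array was control replicate 1, followed by BPA replicate 2. The difference of -0.089 ± 0.118 (SE) had an interval of -0.37 to 0.19. Without control replicate 1 it was -0.0091.

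**Figure D3:**
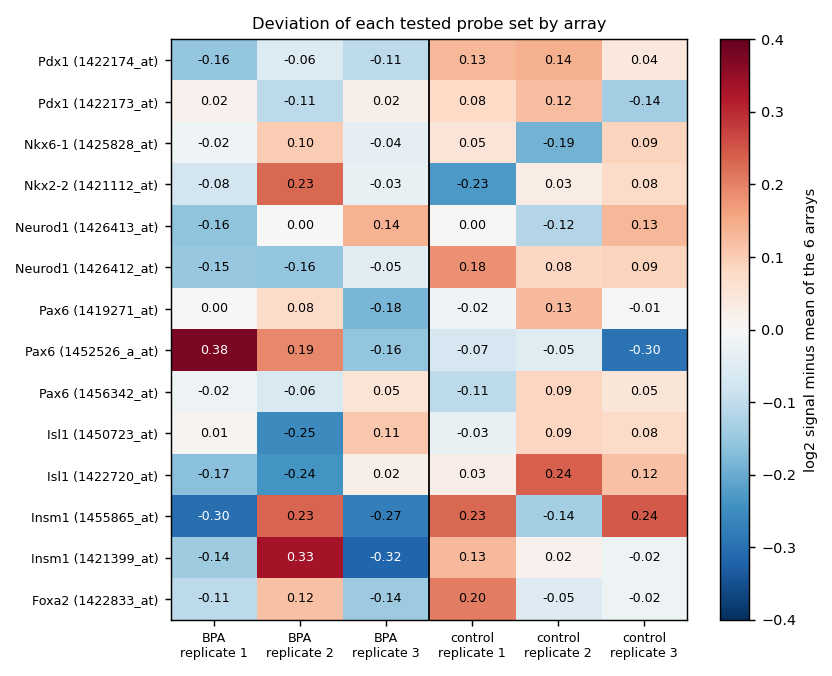
Deviation of each tested probe set (rows) from its own mean over the 6 arrays (log2 signal, colour and printed value), with BPA replicates 1 to 3 left of the line and control replicates right of it. Pdx1 (1422174_at) and Neurod1 (1426412_at) are below their mean in all 3 BPA arrays and above it in all 3 control arrays, while both Insm1 probe sets are high in BPA replicate 2.

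To compare the 8 measured members with one another, each was represented by its tested probe set with the highest mean. Their within-group SD ran from 0.052 for Pdx1 to 0.26 for Insm1 with a median of 0.14, against a median of 0.17 over the 11787 genes tested. In this form 6 of the 8 differences lay below 0, where 42.3% of genes did, and the median was -0.079, against 0.028 over all genes. Only Pdx1 had groups that did not overlap, where 3.53% of genes were lower in this way. Averaged over the 8 members, each centred on its own mean, the signal was -0.10, 0.056 and -0.065 in BPA replicates 1 to 3, against 0.043, -0.013 and 0.080 in control replicates 1 to 3. The groups overlapped here, with BPA replicate 2 above control replicates 1 and 2. The members did not vary as one block. Insm1 and Foxa2 were the most alike pair (r = 0.831 over the 6 arrays), followed by Nkx6-1 and Insm1 (r = 0.687). Isl1 and Foxa2 were the least alike (r = -0.643), and Isl1 ran against 5 of the other 7 members. With 6 arrays and 28 pairs these values describe the arrays and no more.

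The genes whose pattern over the 6 arrays was most like the mean of the members were Gphn (r = 0.994), Mfsd4b1 (r = 0.978) and Pip5k1a (r = 0.977). Of all tested genes outside the members, 86 had an r above 0.9 with that mean, since 6 arrays give many close matches. For single members the closest genes were Cpt1a for Pdx1 (r = 0.999), Ankrd44 for Insm1 (r = 0.999), Zmiz2 for Neurod1 (r = 0.997) and Coasy for Nkx2-2 (r = 0.994). For the remaining members they were Sgsh for Nkx6-1 (r = 0.993), Klhl24 for Pax6 (r = 0.987), Prnp for Foxa2 (r = 0.986) and Ubxn2b for Isl1 (r = 0.983).

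Other transcription factors of the islet and pancreas were described beside the members. Of 40 names, 27 were tested genes, and 0 passed limma's test in either direction (0.0% of all genes tested). Of the 27, 9 lay above 0 and 18 below, with a median of -0.085. Over all tested genes 42.3% lay below 0 and the median was 0.028. The median of the list was -0.034 without BPA replicate 3, -0.037 without control replicate 1 and -0.14 without control replicate 3. The groups did not overlap for 1 higher and 1 lower gene of the list. Of all 11787 tested genes, 999 were higher and 416 (3.53%) lower in this way. The smallest p in this list belonged to Bhlha15, which encodes a basic helix-loop-helix factor of secretory cells known from acinar tissue and is also among the 13 acinar markers given further on. It read 11.87, 11.83 and 11.55 after BPA, against 11.38, 11.30 and 11.21 in controls. All 3 BPA arrays were above the controls, by 0.45 ± 0.12 (SE, adjusted p = 0.655). Stat3, a factor activated by cytokine receptors, differed by 0.39 ± 0.16 (SE) with overlapping groups. Its further probe sets differed by 0.065 ± 0.170 and -0.90 ± 0.52 (SE), also with overlapping groups. Creb1, the cAMP response factor, differed by -0.20 ± 0.11 (SE) with a gap of 0.011 between the groups, and its further probe sets by -0.065 and -0.10 with overlapping groups.

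Cofactors that these proteins bind or that modify chromatin with them gave 29 tested genes of 32 names. None passed limma's test in either direction, 13 lay above 0 and 16 below, and the median was -0.038. Over all tested genes 42.3% lay below 0. The groups did not overlap for 2 higher and 3 lower cofactors, where 999 of 11787 tested genes were higher and 416 (3.53%) lower in this way. Id2, an inhibitor that takes up the E proteins Neurod1 pairs with, read 10.12, 9.83 and 9.83 after BPA, against 10.55, 10.26 and 10.15 in controls. All BPA arrays were lower, by -0.39 ± 0.15 (SE, adjusted p = 0.746), with a gap of 0.031. Psmd9, a proteasome assembly protein, differed by 0.31 ± 0.12 (SE, adjusted p = 0.748), and Tle1, a corepressor of the Groucho family, by -0.26 ± 0.12 (SE, adjusted p = 0.791). Both had groups that did not overlap, and a further probe set of Tle1 differed by -0.087 with overlapping groups.

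Genes that beta cell factors are known to control gave 30 tested genes of 38 names, with 0 past limma's test in either direction. Of these, 13 lay above 0 and 17 below, where 42.3% of all tested genes lay below, and the median was -0.011. The groups did not overlap for 2 higher and 2 lower targets, where 999 of 11787 tested genes were higher and 416 (3.53%) lower in this way. G6pc2, the islet glucose-6-phosphatase subunit, read 13.67, 13.73 and 13.70 after BPA, against 13.85, 13.99 and 13.80 in controls. The BPA arrays were all lower, by -0.18 ± 0.08 (SE, adjusted p = 0.764). Ucn3, a peptide gene of mature beta cells, differed by 0.19 ± 0.11 (SE, adjusted p = 0.832) with groups 0.00030 apart. Trpm5, a cation channel gene, differed by 0.58 ± 0.28 (SE, adjusted p = 0.796) with overlapping groups, and its further probe sets by 0.45 and 0.13.

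**Figure D4:**
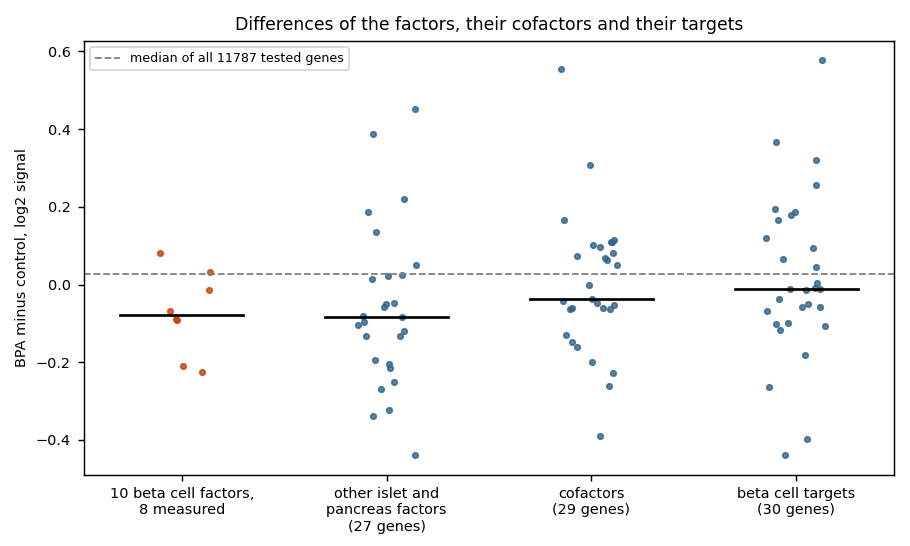
Difference in log2 signal, BPA minus control (vertical axis), of each tested gene, by its probe set with the highest mean, for the 8 measured beta cell factors, 27 other factors, 29 cofactors and 30 targets. Black lines are medians (-0.079, -0.085, -0.038 and -0.011), and the dashed line is the median of all genes, 0.028.

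Markers of the islet cells and of other cells were read on the same arrays. For beta cells, 7 of 8 markers were tested, and their mean log2 signal was 12.92 to 13.16 in BPA arrays and 13.02 to 13.04 in control arrays (difference -0.010, two-sided exact permutation p = 1 over 3 arrays against 3). For alpha cells the 4 of 6 markers tested averaged 11.37 to 11.43 after BPA and 11.40 to 11.52 in controls (difference -0.076, exact permutation p = 0.2). For delta cells the 3 of 4 markers tested differed by 0.050 on average (exact permutation p = 0.6), with Sst at 0.17, Rbp4 at 0.25 and Hhex at -0.27. The Ins2, Gcg, Sst and Ppy genes read 15.29, 15.02, 13.94 and 14.40 on average after BPA and 15.29, 15.10, 13.77 and 13.98 in controls. The groups of each of these genes overlapped. Ppy differed by 0.42 ± 0.18 (SE, adjusted p = 0.787 by limma), with BPA replicate 3 the highest array at 14.79. Of the 10 marker lists, glia and nerve (5 of 8 markers tested) was the only one whose groups did not overlap. Among single tested probe sets, 12.2% were separated in either direction. The glia and nerve markers averaged 8.52 to 8.73 after BPA and 7.88 to 8.46 in controls (difference 0.41, exact permutation p = 0.1, the smallest that 3 against 3 arrays allow). Acinar markers (10 of 13 tested) spread from 12.78 to 14.01 after BPA and from 11.89 to 13.72 in controls. The table used here holds no detection calls, so no marker can be named as absent.

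A measure used for RNA quality also moved with the groups. The 3′ minus 5′ difference in log2 signal of the Gapdh control probe sets was 2.58, 2.91 and 2.99 in BPA arrays, against 3.48, 3.79 and 3.40 in control arrays. For the beta-actin control it was 2.61, 2.83 and 2.98 in BPA arrays, against 3.35, 3.80 and 3.68 in control arrays. Both were lower in all BPA arrays, as was that of 18S RNA (0.64 to 0.86 after BPA and 0.88 to 1.31 in controls). The controls for Tfrc and pyruvate carboxylase overlapped between the groups. The part of this balance and of the glia and nerve signal in the members' differences was not tested. The 2 replicate 3 arrays stood apart from the rest on the first principal component, which held 55.94% of the variance. They were at 36.29 and 47.18 in BPA and control, against -37.54 to -3.24 in the other 4 arrays. With both left out, 0 member probe sets passed. The differences of the 3 separated probe sets were -0.24 for Pdx1 (1422174_at), -0.29 for Neurod1 (1426412_at) and -0.34 for Isl1 (1422720_at). Upward differences in that fit were 0.34 for Pax6 (1452526_a_at), 0.18 for Nkx2-2, 0.11 for Nkx6-1 and 0.022 for Insm1 (1421399_at). The remaining tested member probe sets lay below 0. With 3 arrays a group, precision is limited by their number throughout.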

How the data were processed

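Islet RNA of 3 BPA and 3 control samples was measured on 6 Affymetrix 3′ expression arrays, with 1 µg of total RNA labelled for each, per the labels' protocols. The authors deposited 1 log2 signal per probe set and array, with array medians of 6.55 to 6.65. The submitters' processing notes list MAS5, with no version or role; how probes were summarised and scaled is not stated there or in the labels, which bears most on dim probe sets. Values were used as deposited.

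Groups came from the sample titles. The table had 45101 probe sets; 64 were array controls and were left out, and 34945 of the rest had 1 gene, 932 several and 9160 none in the platform annotation, with symbols updated through the gene ID. The 22518 probe sets with a mean above 6.60 were tested with limma 3.58.1 in R 4.3.3 (lmFit and trended eBayes), two-sided, with p-values adjusted by Benjamini-Hochberg over all tested probe sets and a threshold of 0.05. The fit was tested on simulated data with differences larger than those of the members. That test does not show whether differences of the members' size would be found. Named genes were all members, and the 3 with the smallest p in each of 3 lists, each gene by its tested probe set with the highest mean. The members and lists were chosen with earlier results of these data known. Alternatives were 3 scalings, 2 filters, 2 forms of eBayes, the replicate number as a block, arrays left out and averaging the probe sets of a gene. Figures were drawn with matplotlib 3.10.9.

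Arrays with the same replicate number were compared by their deviations from the group means. The r was 0.476, 0.0781 and 0.706 for numbers 1, 2 and 3, so the numbers were not taken to pair the samples. Variation shared by arrays of the same number therefore stays in the spread within groups of the reported fit.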

Additional observations from a re-analysis of the deposited data

How the results depend on the processing

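No alternative brought a member, a gene of the 3 lists or any other probe set past an adjusted p under 0.05. In the alternatives the difference was -0.24 to -0.13 for Pdx1 (1422174_at), -0.29 to -0.20 for Neurod1 (1426412_at) and -0.34 to -0.20 for Isl1 (1422720_at). The value of -0.13 for Pdx1 came from averaging its probe sets. Most alternatives could not have reversed these directions. The groups of these probe sets did not overlap, so leaving arrays out kept the BPA mean lower. The filters, the forms of eBayes and the block left the differences unchanged. Only the 3 scalings, and averaging for Pdx1, could have changed the direction, and they did not. With the scalings the differences were -0.21 to -0.19 for Pdx1, -0.23 to -0.21 for Neurod1 and -0.26 to -0.23 for Isl1. The replicate number as a block left the difference of Pdx1 at -0.21 (adjusted p = 0.381). With that block 3042 probe sets had an unadjusted p under 0.05, against 1458 of 22518 in the reported fit, 3060 without both replicate 3 arrays, 3162 without BPA replicate 3, 936 without BPA replicate 1, 2643 of 45037 with no filter, 789 of 11259 with a filter at the upper quartile, and 807 of 11787 when the probe sets of a gene were averaged. BPA replicate 2 correlated better with control replicate 1 (0.397) than with control replicate 2.

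Differences near 0 changed sign, none past the test. Neurod1 (1426413_at) was at 0.0079 with quantile normalization, 0.0076 with median centring and 0.015 with cyclic loess, and Pax6 (1456342_at) at 0.0059 and 0.0035 with the first 2. The median of the beta cell targets was 0.011 with median centring, 0.018 with cyclic loess and 0.037 without both replicate 3 arrays, where Insm1 (1421399_at) was at 0.022. Pax6 was at 0.063 with the mean of its probe sets. With each array left out in turn, the ranges that crossed 0 were -0.088 to 0.063 for Neurod1 (1426413_at), -0.054 to 0.085 for Nkx6-1, -0.013 to 0.14 for Nkx2-2, -0.13 to 0.0045 for Pax6 (1419271_at), -0.17 to 0.015 for Isl1 (1450723_at), -0.12 to 0.0077 for Pdx1 (1422173_at), -0.076 to 0.020 for Pax6 (1456342_at) and -0.27 to 0.053 for Insm1 (1421399_at). For the medians they were -0.059 to 0.050 for the targets and -0.0080 to 0.034 for the cofactors, while that of the other factors stayed below 0, at -0.14 to -0.034. The cause of these changes was not tested.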
